A study of Mus musculus with 6 samples.

Results

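Heat shock chaperones and the co-chaperones of Hsp90 were followed in the posterior tissue of Fkbp8 mutant and wildtype mouse embryos. A list of 40 genes was used: 3 Hsp90 genes, 11 Hsp70 genes, 8 J proteins, 3 small heat shock proteins, 6 chaperonin subunits, 7 co-chaperones and 2 heat shock factors. A gene probe was taken as a member where its symbol, or an older alias of it, was on the list. This gave 42 of 34967 gene probes, for 35 of the 40 genes. Hsp90ab1, Hspb1, Hspe1, Cdc37 and Ptges3 had no probe under their own name, so no expression value is counted for them. Of the 42 probes, 38 were bright enough to be tested, for 34 genes, and 33 of those 38 were above background on all 6 arrays. Hspa4l, an Hsp110 relative of Hsp70, was the 1 gene with a probe but no tested one, not above background on any of the 6 arrays.

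Chaperones bind proteins that are unfolded or only partly folded, and keep them from clumping while they fold. J proteins hand such clients to Hsp70, co-chaperones with TPR domains pass some of them on to Hsp90, and the chaperonins Hsp60 and CCT enclose others in a ring. When unfolded proteins build up, heat shock factor 1 is released from chaperones and turns on the inducible chaperone genes through heat shock elements, short repeats of GAA and its complement TTC in alternating orientation. Fkbp8 is itself an immunophilin-like protein with TPR repeats, held in the membranes of mitochondria and the endoplasmic reticulum, which can bind Hsp90 and the apoptosis inhibitor Bcl2.

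The embryos came from crosses between heterozygous Fkbp8 mice and were taken at E9.5. Tissue just behind the forelimb bud was dissected and its RNA hybridised to 1-colour CodeLink whole-genome arrays, 3 from Fkbp8 mutants (a, b and c) and 3 from wildtype embryos (d, e and f). The labels give neither the strain nor the kind of mutant allele, and they speak of embryos in the plural for mutant a, so it is not settled whether that sample is a pool. The p-values therefore measure the spread between these 6 samples. Because whole tissue was measured, fewer cells of a type and less RNA per cell cannot be told apart.

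The Fkbp8 probe was read first as a check of the labels. It gave 6.28, 6.30 and 6.11 log2 units in mutants a, b and c, above background on 0 of 3 arrays, against 10.57, 10.74 and 10.67 in wildtypes d, e and f. The mutant level was at least 18.8-fold lower (limma adjusted p = 1.18e-07). Between 57.6% and 61.8% of gene probes were above background on each array. All 6 posterior trunk markers were detected, and of the head markers Otx2 was not above background on any array, whereas Six3 and Lhx2 were detected, Lhx2 with a log2 fold change of 0.51 (adjusted p = 0.192). The 3 Y-linked genes tested were higher and Xist was lower in the mutants, all 4 at an adjusted p under 0.05, so embryo sex and genotype cannot be told apart. All 5 erythroid genes had positive log2 fold changes, with a median of 0.29, 0 past the test and 2 of 5 at an unadjusted p under 0.05, and their part in the chaperone values was not tested. Their mean level ranged over 11.8 to 12.3 log2 units in mutants and 11.7 to 12.1 in wildtypes. Of 2 endothelial genes tested, 1 had an unadjusted p under 0.05, Kdr at 0.25 (adjusted p = 0.33). The 7 tested immediate early genes, which respond to handling, had a median log2 fold change of 0.042, and limma gave 0 of them an unadjusted p under 0.05.

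No chaperone, co-chaperone or heat shock factor passed the test between mutants and wildtypes. The count was 0 of 38 probes at a limma adjusted p under 0.05, where 0.12% of all 21688 probes tested passed, and the lowest adjusted p was 0.168. At an unadjusted p under 0.05 stood 9 of the 38 probes, or 23.7%, against 12.2% of all probes. Of these 9, 2 were higher in mutants and 7 lower, where 6.43% of all probes were higher and 5.81% lower. In 11 of 38 probes, or 28.9%, the mutant and wildtype values did not overlap, against 19.7% of all probes. Mutant values lay above in 2 of them and below in 9, against 11.2% above and 8.56% below over all probes.

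More members had lower than higher mean values in the mutants. Of the 38 probes, 26 had a log2 fold change below 0, where 47.6% of all probes did. Taking the brightest probe of each gene, 24 of 34 genes had a log2 fold change below 0, which is 70.6%, against 46.8% of all 13346 genes. Their median log2 fold change was -0.12, against 0.011 over all genes. The member median was -0.071 with median centring of the arrays and -0.065 without mutant c. The difference between mutants and wildtypes ran from -1.98 for Hspa8, a value that rests on 1 array, and otherwise from -0.49 for Bag1 to 0.33 for Bag3. By class the median was -0.17 for 2 Hsp90 genes, -0.091 for 10 Hsp70 genes and -0.055 for 8 J proteins. It was -0.11 for 2 small heat shock proteins, -0.27 for 5 chaperonin subunits and -0.11 for 5 co-chaperones. The small heat shock protein median depended on the setting, from -0.49 with plain background subtraction to 0.15 where a probe had to be above background on all 6 arrays, which left only Hspb8. The chaperonin median was -0.16 without mutant b and -0.11 without wildtype f, and the co-chaperone median was -0.039 without mutant c. The 2 heat shock factors had a median of 0.058 by the brightest probe of each and of -0.13 by the mean over probes, since the Hsf2 probes disagree in sign.

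The members taken as heat-inducible were about evenly split in sign. They are textbook targets of heat shock factor 1, and induction by heat was not measured here. The list was Hspa1a, Hspa1b, Hspa8, Hsph1, Hsp90aa1, Hsp90ab1, Dnaja1, Dnajb1, Hspb1, Cryab, Hspd1, Hspe1, Bag3, Stip1 and Ahsa1. The 12 tested of the 15 heat-inducible members had 5 positive and 7 negative log2 fold changes, with a median of -0.022. This count holds Hspa8, a mostly constitutive gene also listed as a target of heat shock factor 1, whose sign rests on mutant a. Without it, 5 were positive and 6 negative, with a median of -0.0039. The 22 other tested members had 5 positive and 17 negative ones, with a median of -0.15. Leaving out Hspa8, the lowest of a gene's 6 values was that of mutant a, b or c in 4, 8 and 10 of 33 genes, and that of wildtype d, e or f in 2, 2 and 7. Over all 12833 genes with 6 values, the lowest was on mutants a, b and c in 15.5%, 20.5% and 15.9%, and on wildtypes d, e and f in 17.2%, 12.2% and 18.7%.

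**Figure D1:**
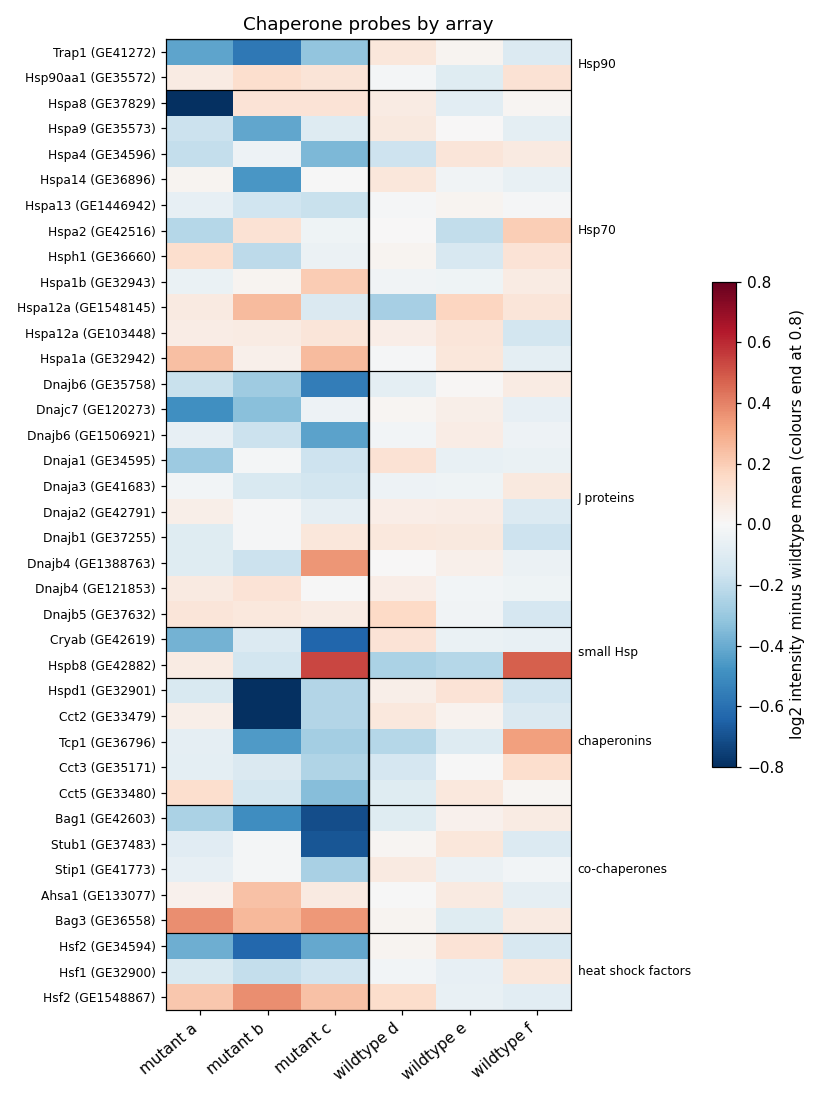
Each row is a tested probe of a chaperone, co-chaperone or heat shock factor, ordered by class, and each column an array, mutants a to c on the left and wildtypes d to f on the right. Colour is the log2 normalised intensity minus the wildtype mean of that probe. The darkest blue, where the scale ends, is at Hspa8 on mutant a and at Hspd1 and Cct2 on mutant b, and Bag3 and the brighter Hsf2 probe are red on all 3 mutants.

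**Figure D2:**
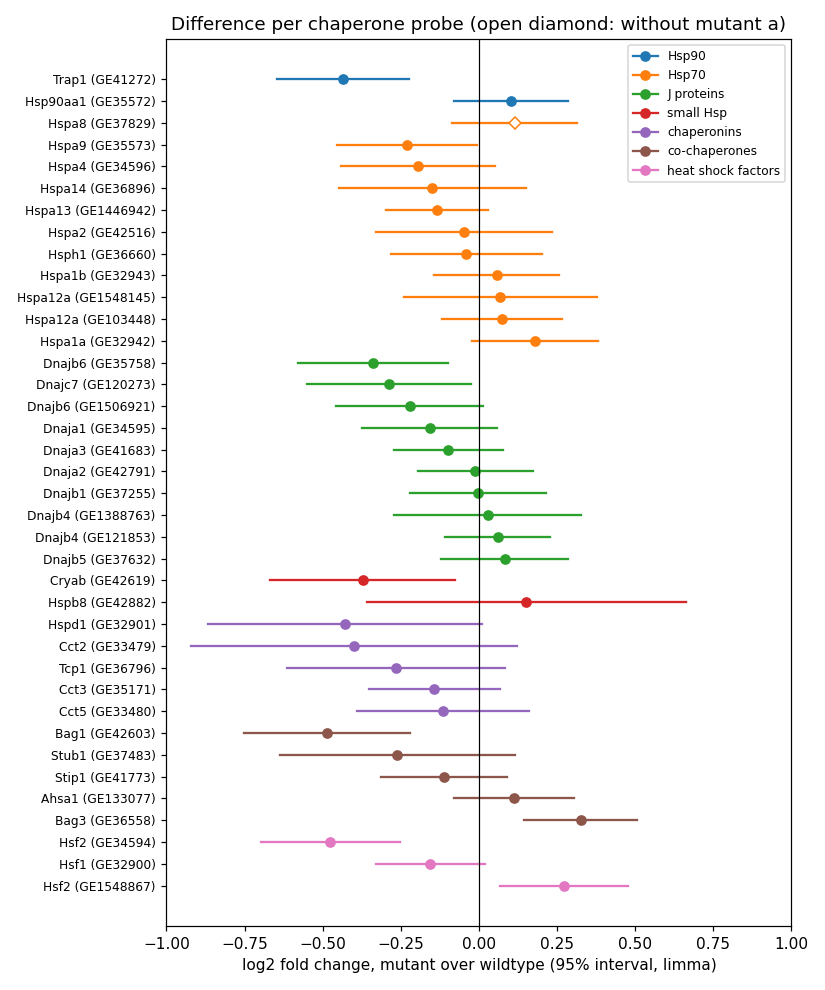
Log2 fold change of mutant over wildtype for each tested probe, by class, with its 95% confidence interval from limma. Hspa8 is drawn only without mutant a, as an open diamond at 0.11, and its value of -1.98 over all arrays lies off the axis. Of the points drawn, Bag3 stands furthest to the right at 0.33 and Bag1 furthest to the left at -0.49.

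Heat shock elements were looked for in the RefSeq promoters of the members, from 250 bases before to 50 bases after each transcript start on GRCm38.p6. The searched pair was GAANNTTC or TTCNNGAA, and the triple was GAANNTTCNNGAA or TTCNNGAANNTTC. Each of these reads the same on both strands or is searched as both of its strands, and a triple always holds a pair. A pair was found for 15 of 33 members with a promoter in the table, or 45.5%, against 17.0% of 27025 genes. These 33 include Hspb1, Hspe1, Cdc37 and Ptges3, which had no probe, and Hspa4l, which was not tested. Hsp90aa1, Hsp90ab1, Hspa8, Hspa9, Hspa13, Cryab and Hsf1 were not among the 33. A triple was found for 4 of 33, or 12.1%, against 0.662% of all genes. The 4 were Hsph1, Dnajb6, Hspd1 and Hspe1. Hspd1 and Hspe1 each had 3 pairs and 2 triples, and whether these are 1 stretch counted for both genes was not checked. The promoters of the inducible Hsp70 twins are shown because they are what heat shock factor 1 is best known to act on, and those of Hspd1 and Dnajb6 because they hold a triple and had the lowest log2 fold changes of the members that do. Capitals mark the matched letters, and 1 window of each gene is given.
Hspa1a, chr17:34972107-34972406, minus strand: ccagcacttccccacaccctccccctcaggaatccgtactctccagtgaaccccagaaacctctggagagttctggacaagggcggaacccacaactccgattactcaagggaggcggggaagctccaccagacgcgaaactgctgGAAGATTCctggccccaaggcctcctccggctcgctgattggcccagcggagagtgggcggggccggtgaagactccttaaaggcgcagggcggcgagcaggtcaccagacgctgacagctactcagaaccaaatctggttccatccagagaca
Hspa1b, chr17:34959189-34959488, minus strand: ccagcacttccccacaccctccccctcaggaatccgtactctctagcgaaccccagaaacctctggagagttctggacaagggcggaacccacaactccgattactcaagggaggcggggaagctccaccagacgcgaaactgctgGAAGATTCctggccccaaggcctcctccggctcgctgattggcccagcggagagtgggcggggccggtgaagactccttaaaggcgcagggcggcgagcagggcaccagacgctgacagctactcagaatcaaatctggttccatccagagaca
Hspd1, chr1:55087883-55088182, minus strand: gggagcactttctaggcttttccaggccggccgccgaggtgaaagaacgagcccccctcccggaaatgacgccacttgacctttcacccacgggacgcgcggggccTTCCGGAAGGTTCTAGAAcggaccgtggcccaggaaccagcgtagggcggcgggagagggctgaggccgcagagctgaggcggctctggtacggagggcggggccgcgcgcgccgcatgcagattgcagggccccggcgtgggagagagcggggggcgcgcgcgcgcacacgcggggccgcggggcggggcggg
Dnajb6, chr5:29735648-29735947, plus strand: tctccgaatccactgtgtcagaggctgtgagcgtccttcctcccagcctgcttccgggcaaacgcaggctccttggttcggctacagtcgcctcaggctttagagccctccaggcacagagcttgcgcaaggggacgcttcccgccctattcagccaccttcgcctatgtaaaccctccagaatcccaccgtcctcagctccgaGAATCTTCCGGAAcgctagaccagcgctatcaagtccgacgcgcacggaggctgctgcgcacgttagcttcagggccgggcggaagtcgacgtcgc
The Hspa1a and Hspa1b windows are the same at 296 of 300 positions, and in both the pair begins at position -104 from the start. In the windows shown, the match in Hspd1 begins at -144 and that in Dnajb6 at -46. From another transcript start of Dnajb6 the same stretch begins at -127, and the window of another Hspd1 start holds no pair. A match says only that the letters are there. Among tested members, the median log2 fold change was -0.34 for 3 genes with a triple (range -0.43 to -0.040). It was 0.057 for 9 with a pair only (-0.40 to 0.33) and -0.11 for 16 with neither (-0.49 to 0.27). The ranges overlapped, and a link between elements and differences was not tested.

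Of the Hsp90 genes, the cytosolic one overlapped between the groups and the mitochondrial one did not. Hsp90aa1, the stress-inducible cytosolic Hsp90, read 12.71, 12.78 and 12.75 in mutants a, b and c, against 12.62, 12.54 and 12.76 in wildtypes d, e and f. The groups overlapped, and the log2 fold change was 0.10 (SE 0.08, 95% interval -0.08 to 0.29, adjusted p = 0.634). Trap1, the Hsp90 of the mitochondrial matrix, read 9.39, 9.24 and 9.50 in the mutants, against 9.90, 9.83 and 9.70 in the wildtypes. All 3 mutant values were below all 3 wildtype values, by -0.44 on average (SE 0.09, 95% interval -0.65 to -0.22), and the adjusted p was 0.183. Over the 16 settings tried, the Trap1 difference ran between -0.50 and -0.37, with adjusted p of 0.121 to 0.446.

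In the Hsp70 class the stress-inducible genes showed no increase that passed the test. Hspa1a, one of 2 neighbouring genes for inducible Hsp70, read 7.44, 7.24 and 7.45 in mutants, against 7.18, 7.29 and 7.12 in wildtypes. Mutant b lay among the wildtype values, and the log2 fold change was 0.18 (SE 0.09, 95% interval -0.02 to 0.38, adjusted p = 0.455). Its twin Hspa1b read 8.03, 8.10 and 8.28 in mutants, against 8.05, 8.05 and 8.14 in wildtypes. These groups overlapped too, at a log2 difference of 0.057 (SE 0.09, adjusted p = 0.825). The coding sequences of this pair are nearly the same, so each probe may read RNA of both genes, and the probe sequences were not used here.

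Hspa9, the mitochondrial Hsp70 that pulls proteins into the matrix and folds them there, read 12.01, 11.77 and 12.08 in mutants, against 12.26, 12.19 and 12.11 in wildtypes. The groups did not overlap, and the mean log2 difference was -0.23 (SE 0.10, adjusted p = 0.396). Hspa13, a microsomal Hsp70 relative, also did not overlap between the groups, with 8.16, 8.07 and 8.05 in mutants against 8.21, 8.24 and 8.21 in wildtypes (log2 fold change -0.13, adjusted p = 0.486). The others overlapped. Their log2 fold changes were -0.20 for Hspa4 and -0.040 for Hsph1, both Hsp110-type exchange factors of Hsp70, -0.15 for Hspa14, -0.049 for Hspa2, which is best known from testis, and 0.074 and 0.068 for the 2 probes of Hspa12a.

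Hspa8, the constitutive Hsp70 of the cytosol, has the most extreme value of all members, and it depends on mutant a. Its probe read 6.28 in mutant a, 12.54 in mutant b and 12.54 in mutant c, against 12.50, 12.35 and 12.44 in wildtypes d, e and f. The log2 fold change over all arrays was -1.98 (SE 1.43, 95% interval -5.23 to 1.27, adjusted p = 0.599). Without mutant a it was 0.11 (SE 0.09, 95% interval -0.09 to 0.31, adjusted p = 0.611). The spots next to it on that array were dark as well: of 10 neighbouring gene spots above background on the other 5 arrays, 5 were not above background on mutant a. On the other arrays the like count was 0 of 5, or 1 of 6 on mutant b. Around the other 37 member probes, 8 of 404 such spots were dark on mutant a, 4 of them near a dim Hspa12a probe. The probe directly beside it, was at 0.24 times the array median on mutant a and at 7.40 and 7.43 on mutants b and c, against 8.56 to 9.12 on the 3 wildtypes. A second Hspa8 probe was masked on mutant a, on wildtype d and on wildtype f, and read 10.28 in mutant b, 10.71 in mutant c and 10.56 in wildtype e. Without Hspa8 the median of the Hsp70 class was -0.049, instead of -0.091.

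**Figure D3:**
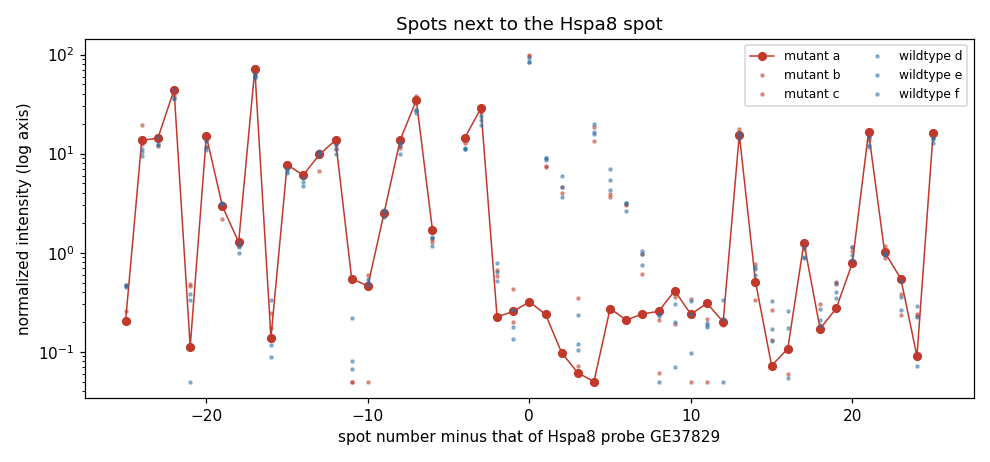
Normalised intensity, in multiples of the array median on a log axis, of the spots around the Hspa8 spot by spot number, for mutants a to c and wildtypes d to f. On mutant a, joined by a line, the Hspa8 spot and several spots after it lie far below those of the other 5 arrays. Values under 0.05 are drawn at 0.05.

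Among J proteins, which stimulate the ATPase of Hsp70, the inducible Dnajb1 had a difference near 0, and Dnajb6 and Dnajc7 had an unadjusted p under 0.05 with lower values in mutants. Dnajb1, the chief Hsp40 of the heat response, read 10.13, 10.22 and 10.32 in mutants, against 10.31, 10.31 and 10.06 in wildtypes. The groups overlapped, and the log2 fold change was -0.0039 (SE 0.10, 95% interval -0.22 to 0.21, adjusted p = 0.99). Dnajb6, which holds back protein aggregation, read 10.68, 10.58 and 10.31 in mutants, against 10.79, 10.87 and 10.93 in wildtypes. Every mutant value was below every wildtype value, at a mean log2 difference of -0.34 (SE 0.11, adjusted p = 0.288). A second Dnajb6 probe, listed under the same cDNA clone as the first, ran the same way. It read 9.90, 9.79 and 9.54 in mutants against 9.94, 10.03 and 9.93 in wildtypes, and also did not overlap (-0.22, SE 0.10, adjusted p = 0.426).

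Dnajc7, a J protein with TPR repeats that binds Hsp70 and Hsp90, read 10.76, 10.92 and 11.21 in mutants, against 11.27, 11.30 and 11.18 in wildtypes. Mutant c overlapped with the wildtypes, and the mean log2 difference was -0.29 (SE 0.12, adjusted p = 0.372). The remaining J proteins all overlapped between the groups. Their log2 fold changes were -0.16 for Dnaja1, -0.098 for the mitochondrial Dnaja3, -0.012 for Dnaja2, 0.060 and 0.028 for the 2 Dnajb4 probes and 0.083 for Dnajb5.

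Of the small heat shock proteins, Cryab was close to background and Hspb8 varied widely within both groups. Cryab, alphaB-crystallin, which holds unfolded proteins in lens and muscle, read 6.35, 6.62 and 6.10 in mutants, against 6.84, 6.68 and 6.67 in wildtypes. Its spot was above background in 1 of 3 mutants and 3 of 3 wildtypes, so the difference of -0.37 (SE 0.13, adjusted p = 0.324) is of dim spots. It was -1.16 with plain background subtraction and -1.12 with the deposited series table. The groups did not overlap. Hspb8, which works with Bag3 in clearing damaged proteins, read 8.50, 8.29 and 8.97 in mutants, against 8.18, 8.21 and 8.91 in wildtypes. The mutants and wildtypes overlapped, at a mean log2 difference of 0.15 (SE 0.22, adjusted p = 0.816).

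All 5 tested chaperonin subunits had negative log2 fold changes, between -0.43 and -0.12, and none of the 5 kept the groups apart. Hspd1, the Hsp60 of the mitochondrial folding chamber, read 13.27, 12.47 and 13.16 in mutants, against 13.44, 13.50 and 13.24 in wildtypes. Mutant b stood well below the other 5 arrays. The log2 fold change was -0.43 (SE 0.19, 95% interval -0.87 to 0.01, adjusted p = 0.416). Cct2, a subunit of the cytosolic CCT ring that folds actin and tubulin, read 11.70, 10.65 and 11.42 in mutants, against 11.74, 11.68 and 11.54 in wildtypes. Mutant b was again the lowest, and the log2 fold change was -0.40 (SE 0.23, adjusted p = 0.511). Without mutant b the differences were -0.18 for Hspd1 and -0.095 for Cct2. The other subunits were at -0.27 for Tcp1, -0.14 for Cct3 and -0.12 for Cct5.

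Of the 8 CCT subunits, the remaining 4 were looked at with other chaperones, a grouping made after values were seen and given as a description. All 8 had negative log2 fold changes by their brightest probe, with a median of -0.20, and 3 of 8 did not overlap. Over all genes 46.8% were negative and 21.0% did not overlap. Cct8 read 11.95, 11.44 and 11.87 in mutants, against 12.39, 12.12 and 12.30 in wildtypes (log2 fold change -0.51, SE 0.14, adjusted p = 0.244). Cct7 had 11.07, 10.92 and 10.62 in mutants, against 11.41, 11.11 and 11.19 in wildtypes (-0.36, SE 0.13, adjusted p = 0.331). Both kept the groups apart. Cct6a was at -0.045. Cct4 was at -0.10 by its brighter probe, also without overlap, but at 0.20 by a dimmer one, where the groups overlapped. Likewise, the 4 mitochondrial members Trap1, Hspa9, Hspd1 and Dnaja3 all had negative values, with a median of -0.33. Among the other chaperones, the mitochondrial Grpel1 was at 0.14, Grpel2 at -0.058, Dnajc19 at -0.059 and Clpb at -0.068.

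**Figure D4:**
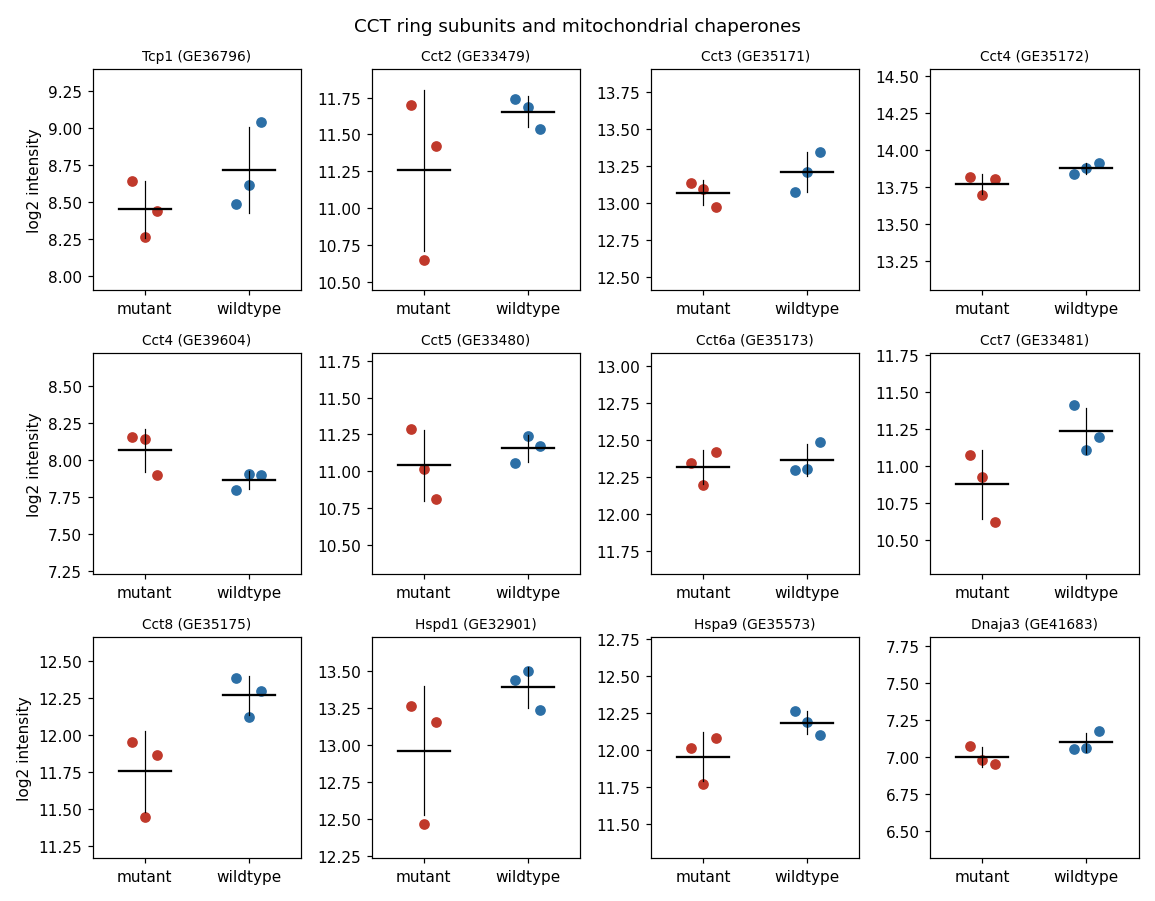
Log2 normalised intensity of the CCT subunits, and mitochondrial chaperones, each probe in its own panel, for mutants on the left and wildtypes on the right, with every array as a point, a horizontal line for the mean and a vertical line for ± SD (n = 3 each). Mutant b gives the lowest Cct2 and Cct8 values, and Cct7 and Cct8 mutants all lie below the wildtypes.

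The 2 co-chaperones of the Bag family, which release ADP from Hsp70, had differences of opposite sign. Bag1, which also binds Bcl2, read 10.19, 9.95 and 9.74 in mutants, against 10.35, 10.48 and 10.51 in wildtypes. All mutants were below all wildtypes, and the log2 fold change was -0.49 (SE 0.12, 95% interval -0.75 to -0.22, adjusted p = 0.226). Bag3, a heat-inducible factor that sends Hsp70 clients to autophagy, read 7.86, 7.74 and 7.83 in mutants, against 7.51, 7.39 and 7.56 in wildtypes. Here all mutants were above all wildtypes, at a mean log2 difference of 0.33 (SE 0.08, 95% interval 0.15 to 0.51, adjusted p = 0.231). Neither changed sign in the 16 settings tried, which gave -0.60 to -0.38 for Bag1 and 0.28 to 0.46 for Bag3, with adjusted p no lower than 0.103 and 0.167.

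The listed co-chaperones Ahsa1, Stip1 and Stub1 overlapped between the groups. Ahsa1, which speeds the ATPase of Hsp90, was at 0.11 (SE 0.08, adjusted p = 0.614) and Stip1, which links Hsp70 to Hsp90, at -0.11 (SE 0.09, adjusted p = 0.631). Stub1, a ubiquitin ligase bound to both, read 9.86, 9.94 and 9.27 in mutants, against 9.97, 10.04 and 9.84 in wildtypes. Mutant c was low, and the log2 fold change of -0.26 had an adjusted p of 0.551.

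The 2 heat shock factors were measured by 3 probes. Hsf1, the master activator of the heat response, read 8.80, 8.73 and 8.77 in mutants, against 8.90, 8.86 and 9.02 in wildtypes, without overlap (log2 fold change -0.16, SE 0.08, adjusted p = 0.452). For Hsf2, a factor active in development, 2 probes disagreed. The array lists the dimmer one under the RefSeq mRNA of Hsf2 and the brighter one under a cDNA of unknown product. The dimmer one read 6.85, 6.61 and 6.83 in mutants, against 7.26, 7.35 and 7.11 in wildtypes, at -0.48 (SE 0.10, adjusted p = 0.168). The brighter one read 7.59, 7.75 and 7.61 in mutants, against 7.52, 7.32 and 7.30 in wildtypes, at 0.27 (SE 0.09, adjusted p = 0.306). Both probes kept the groups apart but in opposite directions, so no direction is given for Hsf2. In the counts and medians by gene it entered by its brighter probe, with a positive sign.

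**Figure D5:**
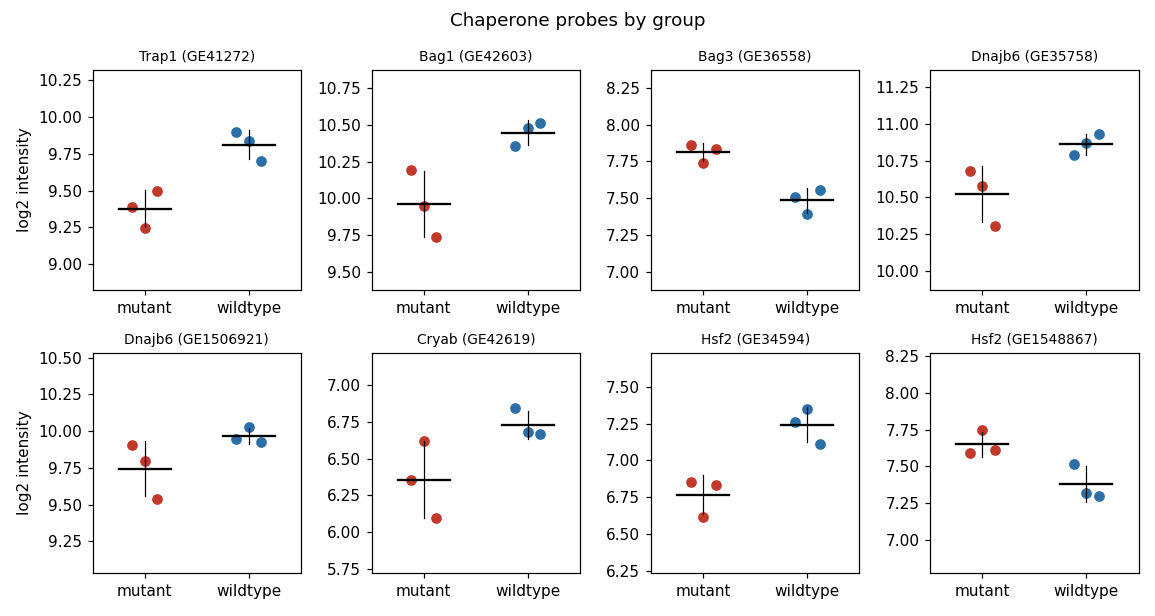
Log2 normalised intensity of 8 chaperone, co-chaperone and heat shock factor probes, each in its own panel, for mutants on the left and wildtypes on the right, with every array as a point, a horizontal line for the mean and a vertical line for ± SD (n = 3 each). Mutants lie below all wildtypes at Trap1, Bag1, both Dnajb6 probes, Cryab and the dimmer Hsf2 probe, and above them at Bag3 and the brighter Hsf2 probe.

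The wider network of chaperones, 51 further genes that include the endoplasmic reticulum chaperones and further Hsp90 co-chaperones, had no gene past the test. Of 42 tested, 0 passed at a limma adjusted p under 0.05, and 5 (11.9%) had an unadjusted p under 0.05, against 13.5% of all genes. Of these 5, 4 were lower in mutants (9.52% of those tested, against 6.15% of all genes) and 1 was higher. The higher one was Hspb2, at 0.45 (SE 0.20, adjusted p = 0.403), and its groups overlapped. Their log2 fold changes were positive for 18 and negative for 24 (57.1%, against 46.8% of all genes), with a median of -0.046. In 6 genes (14.3%) the groups did not overlap, all lower in mutants, where 8.89% of all genes lay apart as lower and 12.1% as higher. Besides Cct7 and Cct8, the smallest p-values belonged to Hspa5, the Hsp70 of the endoplasmic reticulum known as BiP, at -0.29 (SE 0.10, adjusted p = 0.313), and to Chordc1, an Hsp90 co-chaperone, at -0.25 (adjusted p = 0.299) by its brighter probe and -0.025 by the other.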

How the data were processed

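Groups and the letters a to f came from the sample titles. The deposited scanner tables give intensity for each spot as its mean and the median of its local background, which CodeLink software measured, per the file headers. Background was corrected with normexp (offset 50, limma 3.58.1, R 4.3.3), and control spots were dropped. Between 339 and 508 spots per array carried a contamination, shape or mask mark and were treated as missing. The log2 values were then quantile-normalised between arrays. The offset makes differences of dim probes smaller than they are. A probe was tested if above background (scanner mark good or saturated) on 3 or more of the 6 arrays and usable on 2 or more per group. The groups were compared by limma's moderated two-sided test (lmFit, eBayes), and the p-values of all 21688 probes were adjusted together by Benjamini and Hochberg's method. An exact permutation test of 3 arrays against 3 cannot go below p = 0.1. The fit was tested on simulated data, where calls were required only for added changes larger than any difference of a member. It therefore does not show how often changes as small as those of most members would be found. Probes were named from the platform annotation, the RefSeq gene table of GRCm38.p6 and the array file, and the brightest probe stands for a gene in medians. Values by sample are given for the 2 probes of smallest p in each class, the 3 largest differences each way, and Hsp90aa1, Hspa8, Hspa1a, Hspa1b and Dnajb1. Those of Hspa13, Stub1, Hsf1, the second Dnajb6 probe, Cct7 and Cct8 were added after they were seen. Of other chaperones, the 4 genes of smallest p are named, and Cct4, Cct6a, Grpel1, Grpel2, Dnajc19, Clpb and Hspb2 were added likewise. The members and lists were chosen with earlier results of these data known. Alternatives were 4 other background or normalisation settings, the filter on dim probes, the variance trend, array weights, the mean over a gene's probes, the deposited series table and leaving out each array. Promoter sequences are RefSeq's. The number of arrays limits the precision.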

Additional observations from a re-analysis of the deposited data

How the results depend on the processing

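No member passed an adjusted p of 0.05 in any of the 16 settings tried, nor of 0.1. The median log2 fold change of all members, -0.12, stayed below 0 in all of them. It was -0.071 with median centring, which moved the median of all probes to 0.03, and between -0.14 and -0.065 when single arrays were left out. With median centring, class medians were -0.097 for Hsp90, -0.065 for Hsp70, -0.0086 for J proteins and 0.088 for heat shock factors. With plain background subtraction and a floor they were -0.14 for Hsp70, -0.086 for J proteins, -0.49 for small heat shock proteins and 0.11 for heat shock factors. With the deposited series table they were -0.12 for Hsp70, -0.46 for small heat shock proteins and 0.12 for heat shock factors. The Hsp70 median was -0.13 with no filter on dim probes and -0.049 without Hspa8, a setting chosen after seeing the data. With probes above background on all 6 arrays, J proteins were at -0.098 and small heat shock proteins at 0.15, since only Hspb8 was then left. With the mean over a gene's probes, heat shock factors were at -0.13 and Hsf2 at -0.10.

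Leaving out single arrays gave -0.13 to -0.043 for Hsp70, -0.18 to -0.0026 for small heat shock proteins, -0.36 to -0.11 for chaperonins, -0.16 to -0.039 for co-chaperones and 0.0275 to 0.0895 for heat shock factors. The ranges were -0.20 to -0.14 for Hsp90 and -0.077 to -0.044 for J proteins. Of single genes, Hspa8 ran from -3.03 to 0.11 (the highest without mutant a), Hspb8 from -0.038 (without mutant c) to 0.39 (without wildtype f), Hspa1b from -0.017 (without mutant c) to 0.11 and Dnajb1 from -0.086 to 0.042. Dnajb1 was at 0.060 with median centring and 0.026 with the series table. The causes were not tested. No paired analysis was possible because no replicate letter is shared by the groups.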

Other observations

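Probes that the array describes only as similar to Hsp90 or Cdc37 were not counted as members. The probe similar to hsp84, an older name of Hsp90ab1, differed between mutants and wildtypes by a log2 value of -0.064 (SE 0.08, adjusted p = 0.771, limma), the one similar to the kinase-specific co-chaperone Cdc37 had -0.023 (adjusted p = 0.92), and the one similar to the alpha form of Hsp90 had 0.078 (adjusted p = 0.726). None of the 3 kept the groups apart. The probe similar to the alpha form was dim, with means of 6.89 in mutants and 6.81 in wildtypes. A probe similar to the beta form of Hsp90 was above background on only 1 mutant and 1 wildtype array and was not tested.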
